A study of Caenorhabditis elegans with 4 samples.

Results

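The regions described here are the NHR-237 ChIP-seq peaks on chromosome II of the nematode Caenorhabditis elegans. They were selected by chromosome name alone, as every peak placed on II in each of 3 deposited lists, with the number of combined peaks on II already known. Chromosome II held 4706 of the 30000 peaks of replicate 1, 4739 of the 30000 peaks of replicate 2 and 18 of the 89 peaks of a combined list made by the authors over both. The other 4 autosomes, I, III, IV and V, were the comparison and held 19289, 19339 and 45 peaks in the same lists. The series had 2 ChIP samples and 2 input samples, numbered 1 and 2 in each group. All came from hermaphrodites of strain OP228, which carries the mutation unc119(ed3) and the transgene wgIs228, a copy of nhr-237 with TY1, EGFP and FLAG tags together with unc119. Worms were harvested at the L3 larval stage after growth at 20 °C and fixed with 2% formaldehyde. ChIP samples were precipitated with an anti-GFP antibody, and input samples are chromatin of the same lysate that was kept aside. Both groups share the mutation and the transgene, which was introduced by bombardment and puts the GFP tag at the C-terminal end of NHR-237. The strain is 1 transgenic line whose integration site was not analysed here, and whether the replicates are separate cultures is not stated.

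NHR-237 is a nuclear hormone receptor. Proteins of this family bind DNA through a zinc finger domain and can respond to small lipophilic ligands through a separate domain, and the family is strongly expanded in nematodes, where it includes regulators of metabolism, moulting and development. In ChIP-seq a transcription factor is crosslinked to DNA, recovered with an antibody and sequenced with the DNA it holds, so that bound regions appear as peaks of reads. In C. elegans the middle of an autosome is generally rich in conserved and broadly expressed genes, while the arms recombine more and hold more repeats.

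Positions are on the WormBase WS220 build, as the file headers state. The name of each peak carries its number in the list, starting at 1, and low numbers are called early here. Each peak also has a score from the authors, of unstated meaning. All peaks of a list share 1 width, which is 490 bp in replicate 1, 480 bp in replicate 2 and 520 bp in the combined list. The lists hold no read counts, so the depth behind a peak is unknown. Peaks of 1 library are not independent replicates, and the p-values and intervals below cover the number of peaks only, not the spread between cultures. Genes and sequences at these positions were not analysed here.

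Chromosome II held the most combined peaks of any autosome. Its 18 peaks were 28.6% of the 63 autosomal ones, against 18.5% of the autosomal length, which corresponds to 11.7 peaks. This was 1.18 combined peaks per Mb on II, against 1.02 on III, 0.800 on IV, 0.598 on I and 0.382 on V. II was picked for description with this count known, so its rank and share are a description and no test of them is given. The share also depended on the replicate. Among the first 89 peaks by number, II held 17 of 65 autosomal peaks in replicate 2 alone (26.2%) and 8 of 52 in replicate 1 alone (15.4%), below its share of length.

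The first combined peak on II was number 16 of the combined list, at II:10563242-10563761. It shared the highest score of the combined list, 1.49, and matched peak 11 of replicate 1 and peak 15 of replicate 2. Their midpoints lay 7 bp and 5 bp to the left of its own. It was the only combined peak on II with a score above 0. The other 17 had scores between -0.564 and -0.216 and numbers from 33 to 80. On the other autosomes 11 of 45 combined peaks scored above 0.

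Combined peaks in the left part of chromosome II, the first of 3 equal parts, numbered 4. Peak 54 at II:1442177-1442696 was early in replicate 1, at number 49, and late in replicate 2, at number 1347. Peak 65 at II:2967129-2967648 showed the same order, with numbers 68 and 685. The remaining pair started 1398 bp apart, which was the smallest distance between combined peaks on II. Of this pair, peak 44 at II:4737274-4737793 had similar numbers in both replicates, 338 and 443. Peak 80 at II:4735876-4736395 was far apart in the replicates, with number 3367 in replicate 1 and 124 in replicate 2.

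The middle part held 7 combined peaks. Peak 33 at II:5543279-5543798 was, beside peak 16, the only one on II within the first 100 of both replicates, with number 85 in replicate 1 and 35 in replicate 2. Peak 40 at II:6785026-6785545 had numbers 142 and 58. Both were therefore earlier in replicate 2. Peak 46 at II:8742714-8743233 and peak 43 at II:9933028-9933547 were placed almost equally, at 218 and 249 for peak 46 and at 548 and 555 for peak 43. Peak 50 at II:9227366-9227885 was earlier in replicate 1, with numbers 133 and 364. The reverse held for peak 71 at II:8200076-8200595, with numbers 694 and 273, and for peak 78 at II:9275094-9275613, with numbers 1583 and 172. Peaks 50 and 78 started 47.7 kb apart.

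The right part also held 7 combined peaks, and 6 of them lay close together toward the right end. After peak 16 no combined peak was found for 2.33 Mb, and the next 6 then fell within 1.40 Mb. Peak 77 at II:12889667-12890186 had numbers 569 and 302 in replicates 1 and 2, and peak 34 at II:12999896-13000415 had 177 and 268. Peak 52 at II:13588332-13588851 had numbers 994 and 224. Peak 35 at II:13834198-13834717 was in the first 100 of replicate 2 only, with numbers 389 and 76. Peak 64 at II:13917279-13917798 was late in replicate 1, with numbers 1410 and 209, and peak 42 at II:14285629-14286148 was earlier there, with 148 and 524. The division at the long gap was made after the positions were seen and was not tested.

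Most combined peaks on II were thus within the first 1000 of both replicates, and few were within the first 100 of both. The first matching peak had a median number of 278 in replicate 1 (range 11 to 3367) and 258.5 in replicate 2 (range 15 to 1347). On the other autosomes together these medians were 197 (range 14 to 10208) and 136 (range 9 to 8984), and the difference was not tested. In replicate 1 there were 4 combined peaks matching the first 100, 11 matching numbers above 100 up to 1000 and 3 matching later ones. In replicate 2 these counts were 4, 13 and 1. The earlier number lay in replicate 1 for 9 of the 18 and in replicate 2 for the other 9. Within the first 1000 of both replicates were 14 of 18 on II (77.8%) and 32 of 45 on the other autosomes (71.1%). Among the latter this share ran from 33.3% on I to 100% on V, and III (78.6%) also lay above II. Within the first 100 of both were 2 of 18 on II and 10 of 45 on the other autosomes. These last 2 pairs of counts are a description and were not tested.

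**Figure D1:**
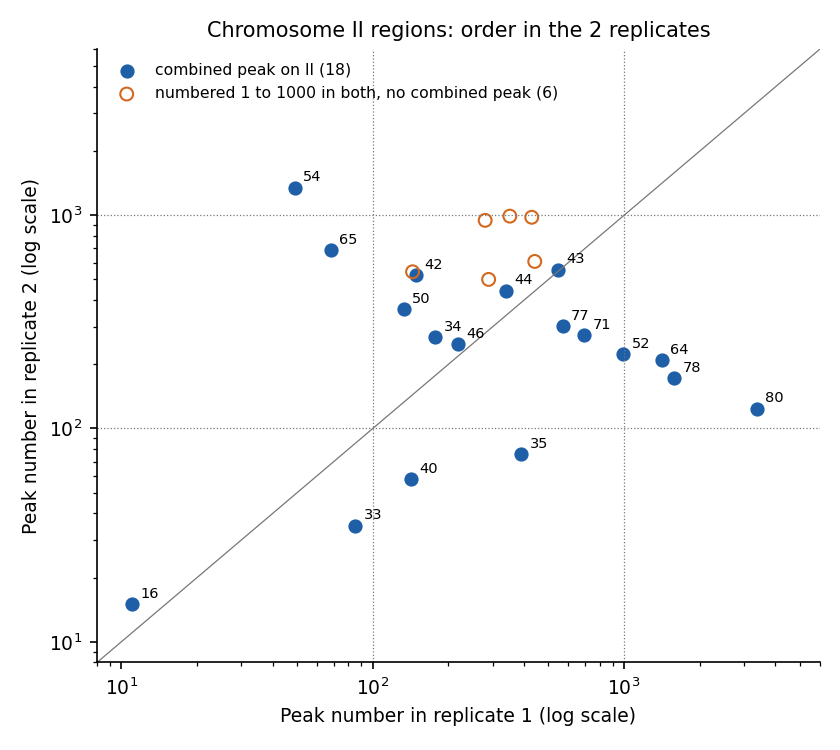
Peak number in replicate 1 (x axis) and in replicate 2 (y axis), both on log scales, for the 18 combined peaks on chromosome II (filled, labelled by combined number) and the 6 regions numbered 1 to 1000 in both replicates that no combined peak covered (open); the diagonal marks equal numbers and dotted lines mark 100 and 1000. Peak 16 stands apart at numbers 11 and 15, and peaks 54 and 80 lie farthest from the diagonal, at 49 and 1347 and at 3367 and 124.

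At all 18 combined peaks the replicate peaks were placed closely. The midpoint of the first matching peak lay a median of 22 bp from the combined midpoint in replicate 1 (at most 79 bp) and 22.5 bp in replicate 2 (at most 95 bp). The authors built the combined list from these very libraries, so this placement is not independent evidence. A further, later-numbered peak of the same replicate also touched the combined peak in 7 cases in replicate 1 and 5 in replicate 2. Whether such peaks also overlapped each other was not examined at these regions.

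**Figure D2:**
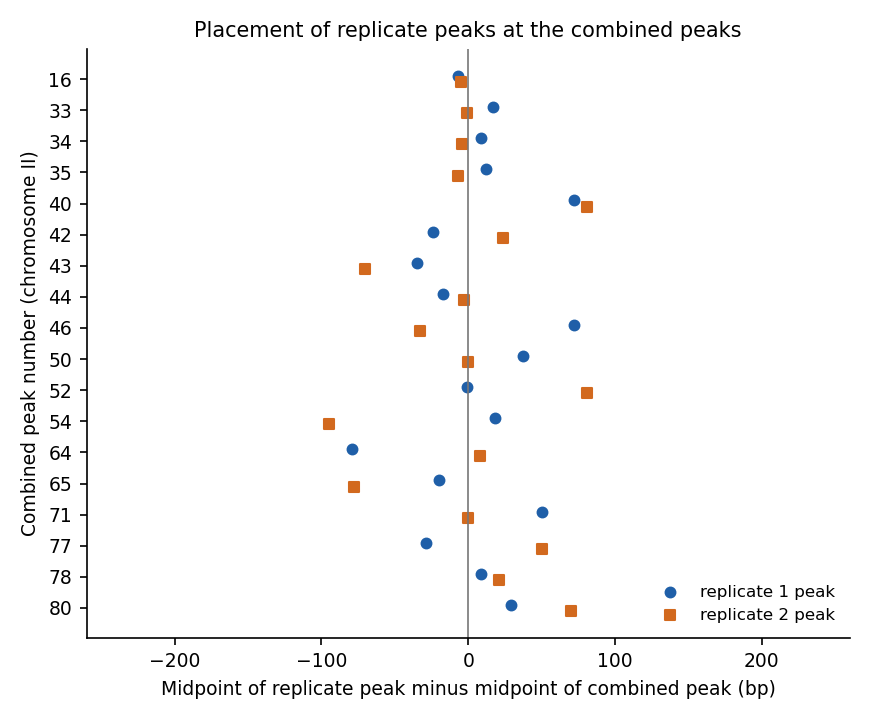
Distance in bp from the midpoint of each combined peak on chromosome II to the midpoint of the first matching peak of replicate 1 (circles) and replicate 2 (squares), with combined peaks ordered by number from top to bottom. All points lie within 95 bp of the combined midpoint.

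Being early in 1 replicate often did not mean being early in the other. For comparison, peaks on II numbered above 1000 met a peak numbered 1 to 1000 of the other replicate less often than early ones. Their share was 2.72% in replicate 1 and 2.27% in replicate 2. Of the 10 peaks on II within the first 100 of replicate 1, all overlapped some replicate 2 peak. This share was 83% of the first 100 over all chromosomes and 78.8% on the other autosomes. However, 7 of the 10 met only peaks numbered above 1000. Peak 31 of replicate 1 at II:6140471-6140960, with a score of 0.267, met number 27655 in replicate 2. Replicate 1 peak 82 at II:12009659-12010148 met number 11324, and replicate 1 peak 64 at II:3905279-3905768 met number 10887. Only 3 of the 10 met a replicate 2 peak numbered 1 to 1000 (30%), against 42% over all chromosomes and 34.6% on the other autosomes. In the combined list were 4 of the 10 (40%), against 46% over all chromosomes and 38.5% on the other autosomes.

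Replicate 2 placed 17 peaks on II within its first 100, and 10 of them lay in the middle part (58.8%). On the other autosomes 20 of 57 did (35.1%), from 16.7% on IV to 54.5% on I. In replicate 1 the middle part held 4 of the 10 on II, against 16 of 52 on the other autosomes, and neither difference was tested. Of the 17, 14 overlapped a replicate 1 peak (82.4%), against 80% over all chromosomes and 73.7% on the other autosomes. A partner numbered 1 to 1000 was met by 4 of them (23.5%), against 36% over all chromosomes and 26.3% on the other autosomes. Only partners numbered above 10000 were met by 8 of them. The share found in the combined list was 4 of 17 (23.5%), against 42% of the first 100 over all chromosomes and 35.1% on the other autosomes. Chromosome X had the highest of these shares, 65.4% with such an early partner and 69.2% in the combined list. The 3 on II with no replicate 1 peak at all were number 28 at II:14822221-14822700, number 43 at II:151814-152293 and number 79 at II:14582423-14582902. These 3 lay near the chromosome ends, in the outermost 1 Mb on both sides. Replicate 2 peak 25 at II:5661694-5662173, the second earliest of replicate 2 on II with a score of 0.172, met number 1007 of replicate 1 and was not in the combined list. The replicate peaks picked out in the last 2 paragraphs were chosen after their values were seen.

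Regions numbered 1 to 1000 in both replicates came to 20 on chromosome II. This was 13.4% of the 149 replicate 1 peaks and 12.5% of the 160 replicate 2 peaks with such numbers there. The other autosomes held 56, or 8.95% of 626 and 9.32% of 601. Taken singly, III lay above II in both of these shares, and I, IV and V lay below it. Per Mb there were 1.31 such regions on II, with 1.23 on III and 0.399 to 0.915 on I, IV and V. Of the 20 regions on II, 14 overlapped a combined peak (70%) and 6 did not. On the other autosomes 32 of 56 overlapped one (57.1%), with III the highest at 64.7%. Midpoints of the pair differed by a median of 18.5 bp on II and 44.5 bp on the other autosomes. Within 100 bp lay 18 of the 20 pairs on II and 45 of the 56 on the other autosomes. These differences were not tested.

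Of the 6 regions without a combined peak, 5 had replicate midpoints within 13 bp of each other. The earliest, at II:10389468-10389947, had numbers 144 and 543 in replicates 1 and 2 with the same midpoint in both. It lay in the same 1 Mb window as II:10446805-10447284, which had numbers 289 and 500 and midpoints 3 bp apart. II:620791-621270 (280 and 946) and II:1246718-1247197 (429 and 978) were each placed within 1 bp. II:5947964-5948435 (351 and 990) differed by 13 bp and II:5844728-5845075 (441 and 607) by 137 bp. All 6 were earlier in replicate 1. Combined peak 43, with numbers 548 and 555, and peak 52, with 994 and 224, were in the combined list. Their replicate 1 numbers were later than those of all 6 regions.

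Along chromosome II both replicates showed the same broad profile, with the most peaks right of the middle and the fewest toward the right end. The 15 full windows of 1 Mb held from 223 to 379 peaks in replicate 1 (median 320) and from 205 to 366 in replicate 2 (median 326). The 3 fullest by the mean of the replicates were 10 to 11 Mb (379 and 366), 8 to 9 Mb (356 and 352) and 6 to 7 Mb (336 and 362). The 3 emptiest were neighbours, at 13 to 14 Mb (223 and 205), 14 to 15 Mb (253 and 244) and 12 to 13 Mb (240 and 271). The last, partial window of 0.274 Mb was as sparse, at 215 and 204 peaks per Mb. The fullest window held 1.70 times as many peaks as the emptiest in replicate 1 and 1.79 times in replicate 2, against 1.56 to 2.15 and 1.65 to 2.04 on the other autosomes. Counts of the replicates over the 15 windows had a Pearson r of 0.917. This is a description, since windows share their libraries and genome composition.

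Combined peaks did not follow this profile. The window from 13 to 14 Mb, the sparsest for both replicates, held 4 combined peaks, the most of any window on II. The leftmost of these 4, peak 34, has its midpoint just inside the window. No combined peak fell in 0 to 1, 3 to 4, 7 to 8 or 11 to 12 Mb, or in the partial window. Over the 15 windows, combined counts and the mean replicate count had a Spearman's rho of -0.196, which with so few combined peaks is a description only. Peaks numbered 1 to 1000 came to 16 in replicate 1 and 12 in replicate 2 at 9 to 10 Mb, and to 7 and 6 at 13 to 14 Mb. The longest stretch without a peak in either replicate was II:14299604-14345418, 45.8 kb long, to the right of combined peak 42.

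**Figure D3:**
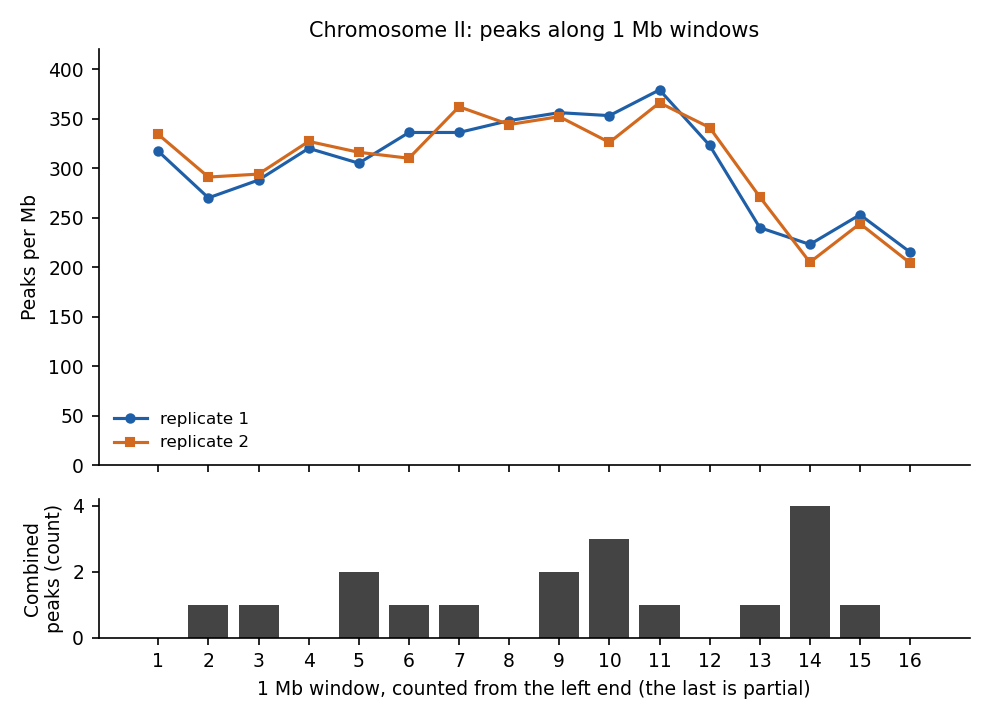
Peaks per Mb in replicate 1 (circles) and replicate 2 (squares) in 1 Mb windows counted from the left end of chromosome II, and below them the count of combined peaks in the same windows. Both replicates have their lowest count of a full window in window 14, 223 and 205 peaks, and this window holds 4 combined peaks.

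By equal parts of the chromosome, replicate peaks on II were most frequent in the middle and least frequent on the right. The left, middle and right parts held 1534, 1765 and 1407 peaks in replicate 1, and 1587, 1734 and 1418 in replicate 2. The middle share on II was 37.5% in replicate 1, against 37.3% on the other autosomes (two-sided Fisher's exact test, adjusted p = 0.881 by Benjamini-Hochberg over the 14 tests fixed for these lists). In replicate 2 it was 36.6%, against 38.6% (two-sided Fisher's exact test, adjusted p = 0.0649, difference -2.05 points, 95% Newcombe interval -3.58 to -0.510). The middle share of II lay below all 4 other autosomes in replicate 2 and within their range in replicate 1. Of the combined peaks 7 of 18 on II were in the middle (38.9%), against 18 of 45 elsewhere (40.0%, two-sided Fisher's exact test, adjusted p = 1). The difference did not pass the test in any list. On II the left part held more peaks than the right in both replicates, as it also did on V in both and on IV in replicate 2, whereas on I and III the right held more than the left in both. This was not tested.

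The share of peaks on II that recurred in the other replicate was higher in the earlier number classes. In replicate 1, 10 of 10 peaks numbered 1 to 100, 96 of 139 numbered above 100 up to 1000 (69.1%) and 2056 of 4557 numbered above 1000 (45.1%) overlapped a replicate 2 peak. Over all chromosomes the same classes gave 83%, 62.9% and 45.2%. In replicate 2 the counts on II were 14 of 17, 105 of 143 (73.4%) and 2085 of 4579 (45.5%), against 80%, 63.3% and 45.1% over all chromosomes. Without regard to number, 45.9% of replicate 1 peaks and 46.5% of replicate 2 peaks on II recurred, against 45.8% over all chromosomes in each. The lists alone set a high level: an interval as wide as a replicate 1 peak would meet a replicate 2 peak at 26.4% of all positions on II and at 24.7% on the other autosomes, and replicate 2 gave 26.4% and 24.6%. The 2 directions count the same overlaps from either side and do not support each other independently.

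Peaks numbered above 100 up to 1000 had a higher recurrent share on II than on each of the other 4 autosomes in both replicates, but the difference did not pass correction. In replicate 1 the share was 69.1% on II, against 61.3% on the others (range 59.3% to 62.0%). The difference was 7.74 points (95% Newcombe interval -1.26 to 15.9; two-sided Fisher's exact test, adjusted p = 0.226). In replicate 2 it was 73.4% on II, against 61.4% on the others (range 54.1% to 66.5%). Here the difference was 12.0 points (interval 3.28 to 19.8; two-sided Fisher's exact p = 0.00817, adjusted p = 0.0649). Ordering by score instead of number changed this. The class of the same ranks then gave 36.1% on II in replicate 1, against 38.9% on the others, and 38.7% on II in replicate 2, against 35.3% (difference 3.43 points, two-sided Fisher's exact test, adjusted p = 0.685). By score this class also recurred less on II than the peaks ranked above 1000, which gave 46.2% in replicate 1 and 46.7% in replicate 2. The same held on the other autosomes, where the peaks ranked above 1000 gave 45.3% and 44.9%. Over all numbers II was higher by 0.843 points in replicate 1 (interval -0.741 to 2.43, two-sided Fisher's exact test, adjusted p = 0.531) and by 1.87 points in replicate 2 (interval 0.286 to 3.45, two-sided Fisher's exact test, adjusted p = 0.0967).

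**Figure D4:**
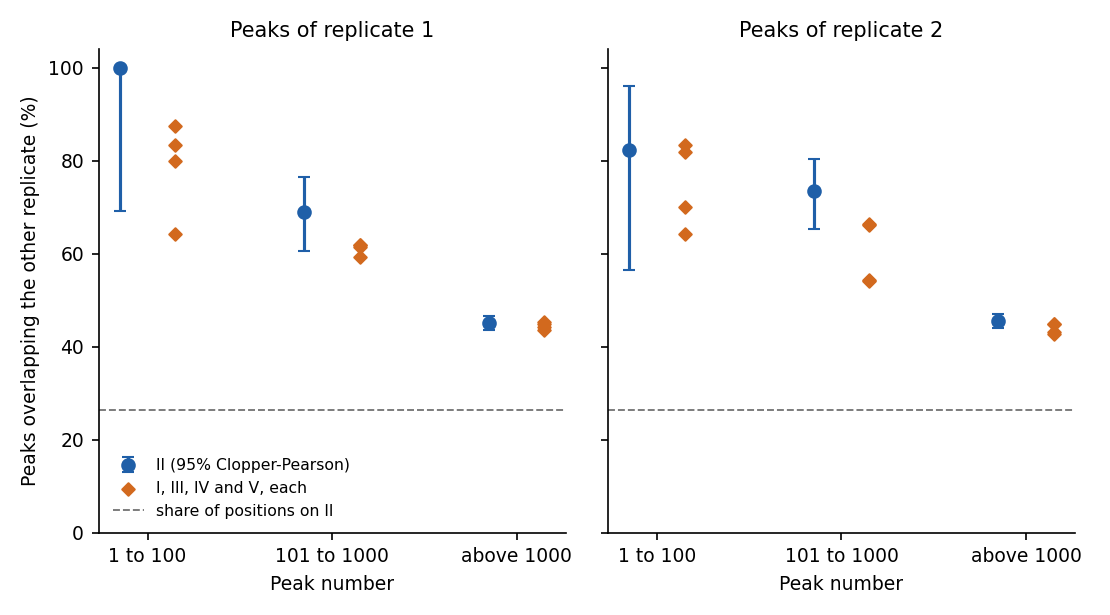
Percentage of peaks that overlapped a peak of the other replicate by at least 1 bp, by peak number, for chromosome II (circles, 95% Clopper-Pearson intervals) and for each of I, III, IV and V (diamonds); the dashed line is the share of positions on II at which an interval of that width would meet the other list. The class above 100 up to 1000 lies at 69.1% and 73.4% on II, above every other autosome, and the class above 1000 lies at 45.1% and 45.5%.

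Most of this recurrence joined peaks of unlike order. Of the 139 replicate 1 peaks numbered above 100 up to 1000 on II, 18 met a replicate 2 peak numbered 1 to 1000 (12.9%), against 7.44% over all chromosomes, and 78 met only later ones. In replicate 2, 16 of 143 met an early partner (11.2%), against 8% over all chromosomes, and 89 met only later ones. On the other autosomes these shares with an early partner were 6.97% and 7.54%. The differences from II did not pass (two-sided Fisher's exact test, adjusted p = 0.0877 for replicate 1 and 0.403 for replicate 2), and this restriction on partners was added after the data were seen. Such a partner would be met at 1.01% of positions on II in replicate 1 and at 0.927% in replicate 2.

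Early peaks that recurred were also placed more closely. On II the nearest replicate 2 midpoint lay a median of 33 bp from recurring replicate 1 peaks numbered 1 to 100, 60 bp for those above 100 up to 1000 and 100 bp for later ones. In replicate 2 these medians were 51.5, 73 and 105 bp. The other autosomes gave 29, 67.5 and 99 bp in replicate 1 and 40, 64 and 96 bp in replicate 2. Over 1919 one-to-one overlapping pairs on II, the numbers in the replicates had a Spearman's rho of 0.148, and rho ran from 0.0697 on I to 0.153 on III among the other autosomes. This is a weak relation across peaks of the same libraries.

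Against the other autosomes, the share of early numbers on chromosome II was slightly lower in replicate 1 and slightly higher in replicate 2. Neither difference passed the test. Numbers 1 to 1000 made up 3.17% of replicate 1 peaks on II, against 3.25% on the other autosomes (two-sided Fisher's exact test, adjusted p = 0.881). In replicate 2 they made up 3.38%, against 3.11% (two-sided Fisher's exact test, adjusted p = 0.551), just above the highest of the other 4 autosomes at 3.32%. For numbers 1 to 500 the shares were 1.61% on II against 1.57% in replicate 1, and 1.88% on II against 1.47% in replicate 2 (two-sided Fisher's exact p = 0.0490, adjusted p = 0.140). Peaks overlapped within a list to a like extent on II and elsewhere: 27.2% of replicate 1 peaks and 28.5% of replicate 2 peaks on II touched another peak of their own list, against 26.97% and 26.5% on the other autosomes. Merging left 4054 and 4049 separate regions on II, which covered 14.1% and 13.9% of it.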

How the data were processed

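Peak positions and scores came from 3 lists deposited by the authors, 1 per NHR-237 ChIP sample and 1 combined. Per the file headers they refer to WormBase WS220, and the source column names SPP via IDR (irreproducible discovery rate) as the caller. The deposited score was used only to describe or order peaks within a list. Aligner, versions, thresholds, use of the input samples and the making of the combined list were not given in the sources used here. No read counts were used, so depth is unknown.

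The members and lists were chosen with earlier results of these data known. All combined peaks on II were named, with the regions numbered 1 to 1000 in both replicates and in no combined peak, and the 3 fullest and 3 emptiest windows. Recurrence meant at least 1 bp in common. Chromosome length was the end of the last replicate peak (15.3 Mb for II). II was compared with I, III, IV and V by two-sided Fisher's exact tests, and combined counts were set against length with a two-sided exact binomial test, with Benjamini-Hochberg adjustment over 14 tests. The binomial test counts in the 14, but its p is not given, since II was chosen with that count known. A difference needed adjusted p under 0.05 and a value outside the range of the 4 autosomes in both replicates. Python 3.11.15, numpy 2.4.6, pandas 2.3.3, scipy 1.17.1 and matplotlib 3.10.9 were used, and overlap and tests were tested on simulated data.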

Additional observations from a re-analysis of the deposited data

How the results depend on the processing

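Across 87 alternatives to 15 results, 74 kept their direction and side of the threshold or moved less than the spread between replicates, and none of the 83 with a test passed an adjusted p of 0.05. Direction turned in 11, none of them past the threshold, and the cause was not tested. The 83 include binomial tests of the combined peaks on II, which cannot count either way, since II was chosen with that count known. With midpoints within 100 bp, 22.3% of replicate 2 peaks above 1000 recurred on II, against 22.4%. With the first 15000 peaks of each list (45 combined), recurrence of replicate 2 peaks 1 to 100 was 58.8% on II, against 59.6%, and the middle share of combined peaks 37.5% (3 of 8), against 5.88% on the other autosomes, a difference of 31.6 points in place of -1.11 (two-sided Fisher's exact test, adjusted p = 0.207). With X among the comparison chromosomes, recurrence of replicate 1 peaks above 1000 was 45.1%, against 45.2%, and the middle share of combined peaks 38.9%, against 32.4%. By score, replicate 1 peaks above 100 up to 1000 recurred at 36.1%, against 38.9%, and early peaks made up 3.23% of replicate 2 on II, against 3.33%. Counting numbers 1 to 500 as early gave 1.61% in replicate 1, against 1.57%. With early partners only, added after the data were seen, the first 100 recurred at 30% in replicate 1, against 34.6%, and 23.5% in replicate 2, against 26.3%. Single replicates gave 15.4% to 26.2% of autosomal peaks on II in place of the combined list, and 1.70 to 1.79 for the fold between the fullest and emptiest window. That fold moved to 1.93 in 0.5 Mb windows and 1.51 in 2 Mb windows (1.74 in 1 Mb windows, mean of the replicates). Counting combined peaks within 2 kb once, added after the data were seen, left 17 of 62 on II. Leaving out a replicate was not possible for recurrence, which needs both. No paired analysis was possible because no list of the input samples entered the comparison. With depth unknown, a peak missing from a list cannot be called absent.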
